A study of Mus musculus with 24 samples.

Results

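Kidney RNA of mice given a monoclonal antibody against human ENPP1 was compared with that of mice given control IgG, all on an adenine-containing diet. The comparison took the 8 libraries whose titles name the antibody (n = 4) or IgG (n = 4), of 24 libraries in the series. Every gene that passed a filter on low counts was tested, 16410 of 27167 with reads. Both groups were fed adenine for 14 days, were injected intraperitoneally at 50 mg/kg 2 times a week, and gave kidneys at day 14. The other 16 libraries belong to a separate knockout experiment, used here only as a reference: 6 mice with a tamoxifen-induced Enpp1 deletion (Enpp1 fl/fl with CAG-ERCre, a Cre gene under a broadly active promoter), 6 Cre-negative wild-type mice, both on adenine for 14 days, and 4 mice on chow. No chow group was run beside the antibody and IgG groups. Genotype, strain, sex and age of the antibody and IgG mice, the clone of the antibody, the isotype of the IgG, and whether these mice carried human ENPP1, the named target, are not stated in the labels. Each library was read as 1 mouse. The labels do not state this, so p-values measure the spread between these samples.

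ENPP1, an ectonucleotidase of the cell surface, turns ATP outside the cell into AMP and pyrophosphate. Pyrophosphate inhibits mineral deposition. The enzyme also degrades cGAMP, the messenger that activates STING. Excess dietary adenine is oxidised by xanthine dehydrogenase to a poorly soluble product that crystallises in the tubules. The tubules then lose transporters and metabolic enzymes and gain injury genes, and immune cells and fibroblasts gather around them. The design asks how the kidney transcriptome differs between mice given this antibody and mice given IgG in this injury. Whether ENPP1 was blocked in these mice was not tested here.

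Levels are given as CPM, read counts scaled to a common library total, after TMM scaling, a correction for library composition. Values of a group are listed in the order of replicates 1 to 4. Log2 changes are antibody minus IgG, with the standard error (SE), and p-values are adjusted over all tested genes, from edgeR's quasi-likelihood test. A gene was called at an adjusted p below 0.05. Reads assigned to genes ranged from 43886517 to 46575842 with the antibody and from 46520886 to 50566596 with IgG (exact two-sided permutation p = 0.0571, where 0.0286 is the smallest that 4 against 4 allow). Mitochondrial genes took 23.6% to 26.8% and 20.6% to 30.1% of them. The number of genes with a read was lower in every antibody library (19976 to 20211) than in any IgG library (20730 to 21131, exact permutation p = 0.0286). So was the TMM factor, at 0.882 to 0.945 with the antibody and 0.968 to 1.18 with IgG (exact permutation p = 0.0286). The scaling thus differed between the groups. The kidney identity of the tissue was plain in all 8 libraries, in which proximal tubule genes summed to 8401 CPM or more and adrenal markers to 2.34 CPM or less.

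The antibody and IgG libraries formed separate groups. The first principal component of log2 CPM held 64.2% of the variance and had every antibody library on one side of every IgG library. The second held 7.59% and was set mainly by IgG replicate 1, which also had the highest mitochondrial share. Of 16410 genes tested, 4469 (27.2%) were higher and 4603 (28% of those tested) were lower with the antibody, so that 55.3% were called in either direction. At least 2-fold changes numbered 671 upward and 1191 downward. Upper-quartile scaling, which moved the median change of all genes by -0.16, gave 2988 higher and 6621 lower, so that higher genes were 31.1% of the calls in place of 49.3%. Every antibody library lay above every IgG library for 25.4% of tested genes and below for 25.2%. These shares are the background for the counts below.

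**Figure D1:**
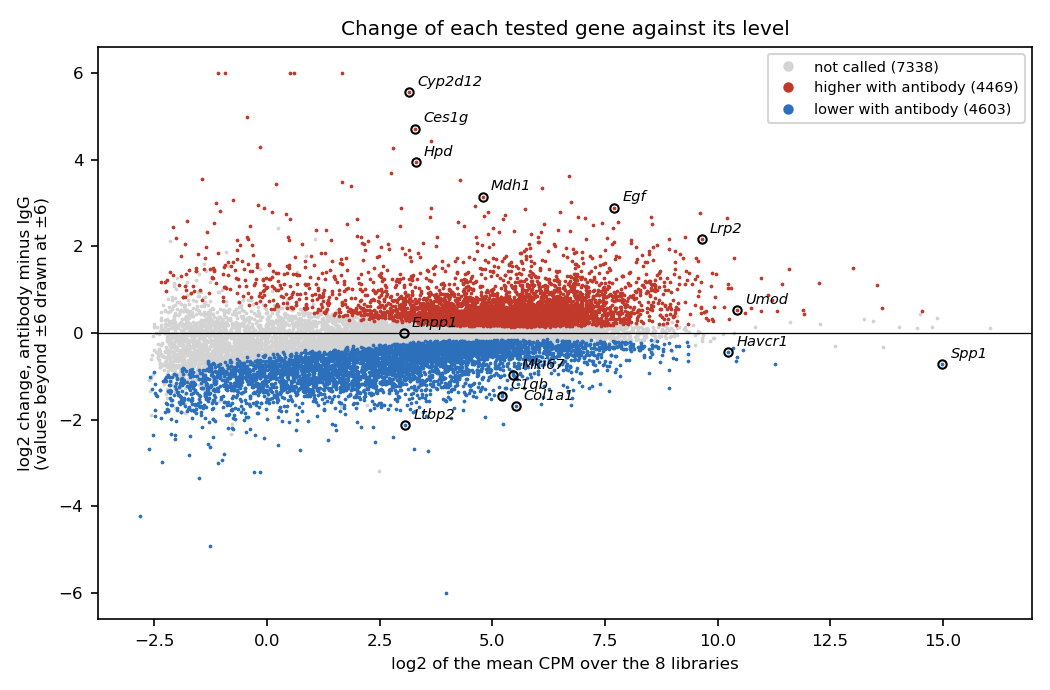
Log2 change between antibody and IgG (vertical axis) against log2 of the mean CPM over the 8 libraries (horizontal axis) for the 16410 tested genes, each a point. The 4469 red genes were called higher and the 4603 blue genes lower, over the whole range of levels, and 14 genes of the text are circled and named.

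Enpp1 RNA did not separate the groups. It stood at 9.51, 2.62, 3.26 and 17.4 CPM with the antibody and 7.94, 8.86, 8.68 and 7.22 CPM with IgG. Antibody replicates 2 and 3 lay below every IgG library and replicates 1 and 4 lay above every one, with replicate 4 the highest of all 8. The change on the log2 scale, with SE, was -0.00 ± 0.47, with a 95% interval of -1.04 to 1.03 (adjusted p = 0.997, edgeR). The longest annotated transcript, of 6777 bases, stood at 0.812, 0.149, 0.175 and 1.62 TPM (the authors' length-adjusted transcript share) with the antibody and 0.772, 1.23, 1.07 and 0.825 TPM with IgG, so it followed the order of the total among antibody libraries. A transcript of 3231 bases stood at 0.345, 0, 0 and 0.588 TPM with the antibody and was listed at 0 in all 4 IgG libraries. One of 3638 bases overlapped between the groups, at 0.236 to 0.46 TPM with the antibody and 0.334 to 0.535 TPM with IgG. These are reads of mouse Enpp1, and an antibody acts on the protein, so this level is no check of the treatment. In each of the 16 libraries of the knockout experiment the transcript of 6777 bases stood higher, at 2.73 to 5.15 TPM. The reason for this difference between the experiments was not tested.

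**Figure D2:**
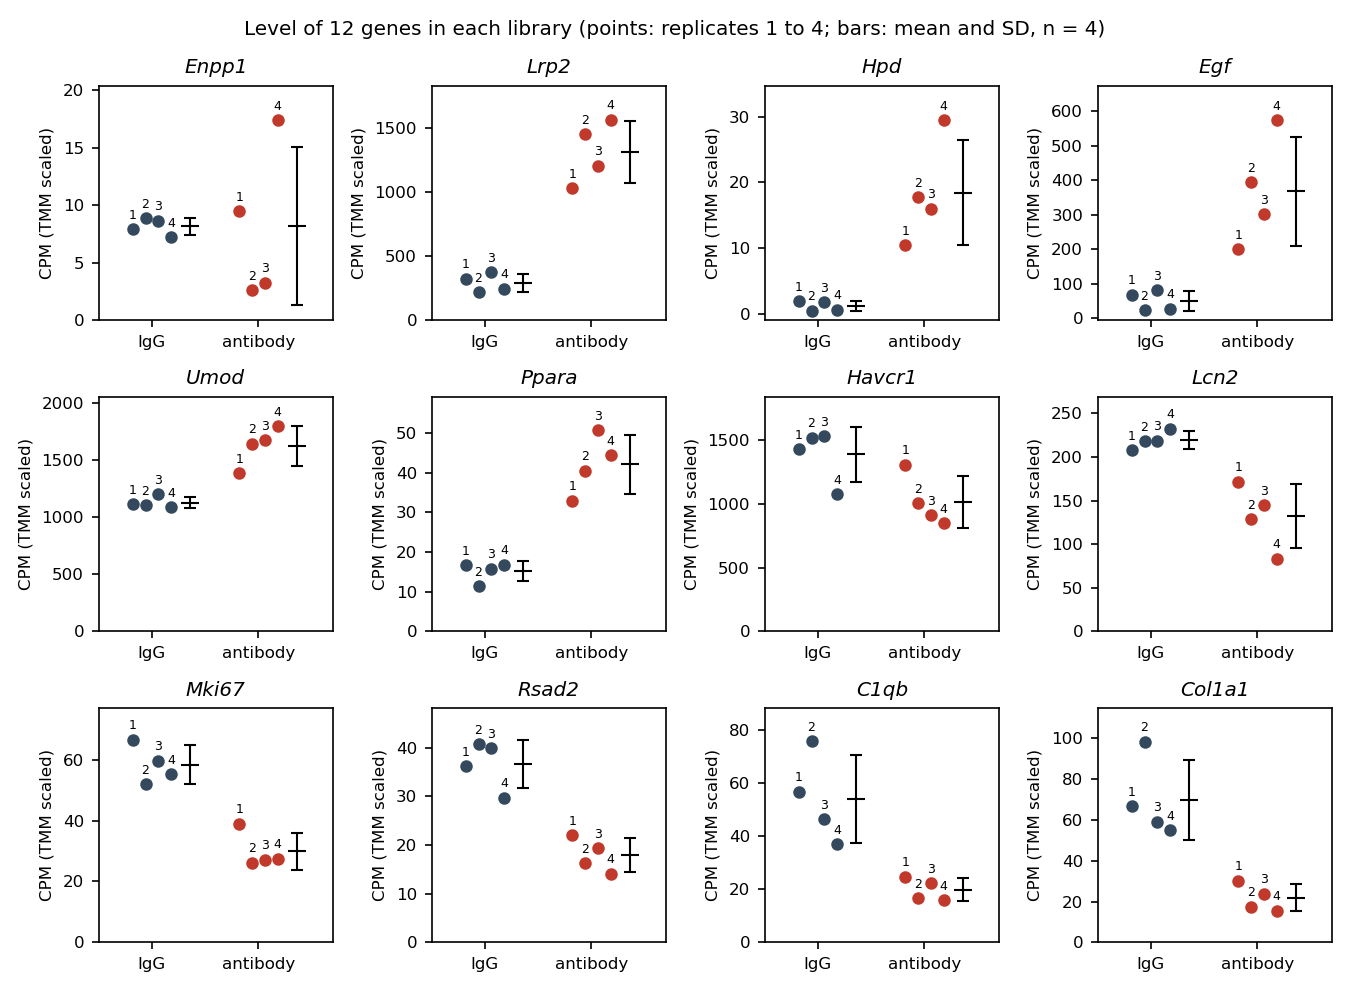
CPM (vertical axes, linear) of 12 genes in each IgG (dark) and antibody (red) library, with replicate numbers beside the points and the mean and SD (n = 4) as bars. Enpp1 and Havcr1 overlap between the groups; the other 10 genes do not.

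The largest rises included metabolic enzymes and transporters. Hpd, an enzyme of tyrosine breakdown, stood at 10.5, 17.7, 15.99 and 29.5 CPM with the antibody and 1.95, 0.509, 1.75 and 0.63 CPM with IgG. All antibody libraries were above all IgG libraries (log2 change 3.94 ± 0.43, edgeR adjusted p = 7.29e-05). Dpys, which opens the ring of dihydrouracil in pyrimidine breakdown, held 6.67, 13.4, 11.3 and 18.6 CPM against 1.37, 0.421, 1.37 and 0.725 CPM (log2 change 3.69 ± 0.38, adjusted p = 6.27e-05, edgeR). Egf, made by the distal tubule as the precursor of epidermal growth factor, rose from 67.4, 23.05, 80.2 and 27.3 CPM with IgG to 199.9, 394, 302 and 573 CPM with the antibody. The groups did not overlap, with IgG replicate 2 lowest and antibody replicate 4 highest (log2 change 2.89 ± 0.44, adjusted p = 3.34e-04). Slc7a13, an amino acid transporter of the proximal straight tubule, held 151, 172, 156 and 295 CPM against 20.5, 4.31, 27.1 and 10.6 CPM (3.63 ± 0.47). Slco1a1, an organic anion transporter, and Apom, an apolipoprotein that carries sphingosine 1-phosphate, changed by 3.02 ± 0.41 and 2.89 ± 0.30. Pzp, a protease inhibitor of the alpha-2-macroglobulin family, changed by 3.53 ± 0.39. Abhd4, a lipid hydrolase, stood at 5.46, 5.73, 33.9 and 49.96 CPM with the antibody and 1.07, 0.965, 0.975 and 1.41 CPM with IgG, so replicates 3 and 4 carried most of its rise (4.42 ± 0.73). Cyp2d12 (5.56 ± 0.64), Ces1g (4.71 ± 0.54) and Gm10681 (3.34 ± 0.26) completed the group with Mdh1, the cytosolic malate dehydrogenase (3.15 ± 0.17). Cyp2d12, Ces1g and Gm10681 have near-identical relatives between which reads can be exchanged, and their values are uncertain. The value of Mdh1 is uncertain too, as most of its count came from a single short transcript model.

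The largest falls included matrix, immune and cell division genes. Ltbp2, a matrix protein of the latent TGF-beta binding family, stood at 4.37, 2.44, 3.52 and 2.14 CPM with the antibody and 7.34, 19.8, 9.998 and 17.05 CPM with IgG (log2 change -2.12 ± 0.32, edgeR adjusted p = 3.54e-04). Ncam1, a cell adhesion molecule, held 9.44, 6.17, 6.94 and 5.17 CPM against 22.4, 33.9, 23.9 and 28.4 CPM (-1.97 ± 0.18, adjusted p = 4.54e-05). Spc24, a kinetochore subunit, held 18.95, 14.03, 14.1 and 10.3 CPM against 104, 52.2, 43.7 and 46.3 CPM, with IgG replicate 1 far above the others (-2.10 ± 0.28). Mmp12, the macrophage elastase, held 15.6, 10.8, 12.2 and 8.91 CPM against 18.3, 84.9, 25.7 and 53.99 CPM: the groups did not overlap, but IgG replicate 1 came close to the antibody libraries and IgG replicate 2 was the highest (-1.94 ± 0.41, adjusted p = 0.00239). Ccdc80, a matrix-bound protein, Basp1, a membrane protein, Lilr4b, an inhibitory receptor of myeloid cells, Bst1, an NAD-consuming ectoenzyme, Ifi27l2a, an interferon-induced gene, and Adgra1, an adhesion receptor, changed by -1.82 ± 0.23, -1.92 ± 0.27, -1.81 ± 0.27, -1.81 ± 0.18, -1.78 ± 0.26 and -2.16 ± 0.37. Vmn2r113 (-2.41 ± 0.41), of a large receptor family with near-identical copies, is uncertain. Rpl9-ps6, a copy of a ribosomal protein gene, was listed with 0 reads in all 4 antibody libraries and at 48.9, 23.1, 24.5 and 28.8 CPM with IgG, which is at least 1680-fold lower, with a floor of 3 reads over the group. In the 16 libraries of the knockout experiment it did not exceed 0.681 CPM.

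Proximal tubule genes rose together. All 25 of 25 members tested were higher with the antibody, where 27.2% of all tested genes were, and their median log2 change was 1.68, beside -0.04 over all tested genes. The proximal tubule reclaims most of the filtered load of the kidney. Lrp2, which encodes megalin, its receptor for filtered proteins, stood at 1029, 1451, 1205 and 1564 CPM with the antibody and 326, 220.4, 375 and 246 CPM with IgG. The lowest antibody library was above the highest IgG library (log2 change 2.17 ± 0.19, edgeR adjusted p = 4.35e-05). Cubn, the partner receptor of megalin, held 272, 357, 333 and 368 CPM against 94.1, 82.96, 121 and 87.6 CPM (1.79 ± 0.13). Aqp1, the water channel, held 162, 235, 222 and 288 CPM against 60.01, 68.8, 75.3 and 69.9 CPM (1.73 ± 0.15). Cyp4b1, a cytochrome P450 of the kidney, held 938, 1575, 1397 and 1584 CPM against 213, 129, 286 and 174 CPM (2.78 ± 0.25). Ass1, which makes argininosuccinate for arginine synthesis, held 470.2, 703, 596 and 834 CPM against 188, 117, 191 and 139 CPM (2.04 ± 0.20). The 25 genes summed to 29217, 35129.7, 34576 and 44954 CPM with the antibody and 14054, 8401, 14896 and 11348 CPM with IgG, so the antibody libraries differed among themselves with replicate 1 lowest and replicate 4 highest. In bulk tissue, fewer cells of a type and less RNA per cell cannot be told apart.

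**Figure D3:**
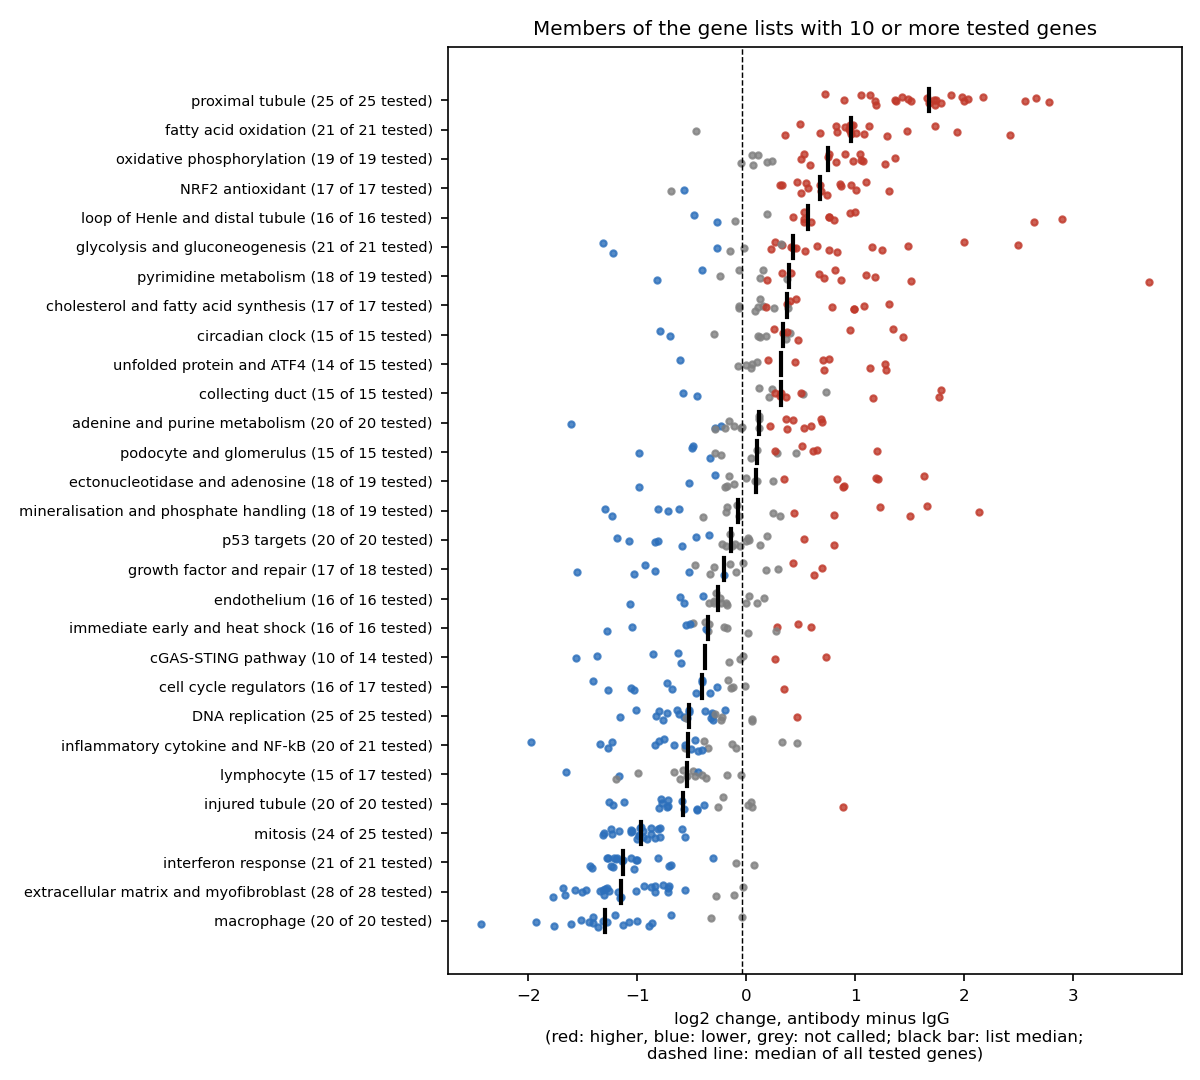
Log2 change between antibody and IgG (horizontal axis) of each tested member of the 29 gene lists with 10 or more tested genes, ordered by their medians (black bars). The proximal tubule list lies at the top with a median of 1.68 and the macrophage list at the bottom with -1.29; the dashed line is the median of all tested genes, -0.04.

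Further along the nephron the changes were smaller and mixed. Of 16 loop of Henle and distal tubule genes, 12 were higher and 2 lower (median 0.56). Umod, which encodes uromodulin of the thick ascending limb, held 1382, 1642, 1669 and 1792 CPM against 1115, 1103, 1199 and 1088 CPM (log2 change 0.53 ± 0.10, edgeR adjusted p = 9.71e-04). Slc12a3, the thiazide-sensitive sodium chloride cotransporter, held 465, 615, 509 and 569 CPM against 325, 208, 297 and 255 CPM (0.99 ± 0.14). Kcnj1, a potassium channel, and Cldn10, a claudin, changed by 0.76 ± 0.12 and 0.76 ± 0.11. Cldn19, a claudin of the thick ascending limb, moved against the list and held 22.3, 22.3, 23.5 and 20.2 CPM against 26.4, 32.6, 30.05 and 33.8 CPM (-0.47 ± 0.09, adjusted p = 9.22e-04). Of 15 collecting duct genes, 8 were higher and 2 lower, and with upper-quartile scaling 3 were higher and 2 lower. Slc26a4, the pendrin exchanger of intercalated cells, held 49.04, 73.6, 54.04 and 69.2 CPM against 28.4, 9.17, 20.8 and 13.2 CPM (1.79 ± 0.29). Aqp3, a water channel of principal cells, held 26.4, 36.6, 29.5 and 39.4 CPM against 17.4, 10.1, 17.6 and 14.1 CPM (1.16 ± 0.18). Aqp2, the vasopressin-regulated water channel of the same cells, held 18.3, 18.6, 16.01 and 20.3 CPM against 15.97, 12.1, 18.7 and 15.4 CPM: the groups overlapped and the change of 0.23 ± 0.12 did not pass (adjusted p = 0.13, edgeR), though it did without IgG replicate 3 (0.34, adjusted p = 0.0358). Fxyd4, a regulator of the sodium pump, held 17.6, 13.01, 13.9 and 12.4 CPM against 22.9, 18.7, 22.1 and 21.7 CPM and fell (-0.58 ± 0.11).

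Genes of mitochondrial and intermediary metabolism rose with the proximal tubule list. Of 21 fatty acid oxidation genes, 20 were higher and none was lower (median 0.96), and the one that did not pass was Pdk4. Ppara, the nuclear receptor that drives these genes, held 32.9, 40.5, 50.8 and 44.4 CPM against 16.7, 11.3, 15.8 and 16.8 CPM (log2 change 1.48 ± 0.15, edgeR adjusted p = 5.79e-05). Hadha, a subunit of the mitochondrial trifunctional protein, held 156, 199, 195 and 199 CPM against 98.9, 93.1, 103 and 91.2 CPM (0.96 ± 0.09), and antibody replicate 1 was the lowest of its group. Of 19 oxidative phosphorylation genes encoded in the nucleus, 13 were higher and none was lower (median 0.75). They included Atp5b (1.36 ± 0.14), of the ATP synthase, Sdha (1.28 ± 0.12), of complex II, and Ndufs1 (1.04 ± 0.09), of complex I. Of 21 glycolysis and gluconeogenesis genes, 15 were higher and 3 lower (median 0.43). Those of glucose production led the rises: G6pc, the last step of glucose release, held 173, 325, 177 and 346 CPM against 43.96, 25.6, 70.7 and 40.9 CPM (2.49 ± 0.32), and Fbp1 changed by 1.99 ± 0.18. The falls were of Hk2 (-1.22 ± 0.21), which starts glycolysis, Ldhb (-1.31 ± 0.15), a lactate dehydrogenase subunit, and Pfkp (-0.27 ± 0.09), whose adjusted p ran from 0.00875 to 0.0934 when single libraries were left out. Of 17 NRF2 antioxidant genes, 15 were higher and 1 lower. Cat, catalase, held 889.7, 1118, 1022 and 1223 CPM against 511, 348, 485 and 367 CPM (1.31 ± 0.14), and Gclm, of glutathione synthesis, 288, 333, 312 and 344 CPM against 208, 169, 214 and 176 CPM (0.74 ± 0.10).

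**Figure D4:**
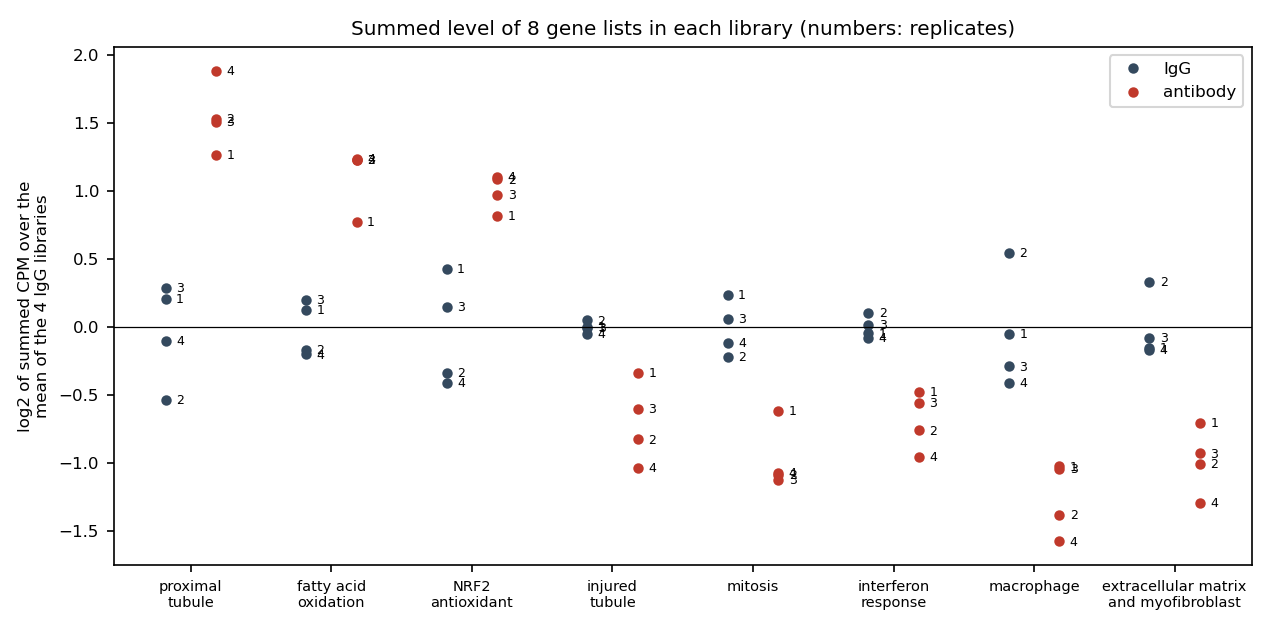
Log2 of the summed CPM of 8 gene lists in each library (vertical axis) relative to the mean of the 4 IgG libraries, with replicate numbers beside the points. In all 8 lists the antibody libraries (red) lie apart from the IgG libraries (dark), above in the first 3 and below in the other 5. The injured tubule sum is mostly Spp1.

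Tubular injury genes were lower with the antibody. Of 20 members, 14 were lower and 1 higher, where 28% of all tested genes were lower, and the median was -0.58. The list summed to 35703, 25479, 29718 and 22039 CPM with the antibody and 45244.5, 46668, 44934 and 43592 CPM with IgG, most of it Spp1. Spp1, osteopontin, one of the most abundant RNAs of these kidneys, held 31464, 21878, 26020.2 and 19038 CPM with the antibody and 40576, 41934, 40197 and 39291 CPM with IgG (log2 change -0.72 ± 0.17, edgeR adjusted p = 0.00399). Lcn2, lipocalin 2, a secreted marker of tubular damage, held 172, 128, 145 and 83.4 CPM against 208, 218, 219 and 232 CPM (-0.73 ± 0.17, adjusted p = 0.00424). In both genes no antibody library reached the lowest IgG library. Havcr1, which encodes kidney injury molecule 1, held 1305, 1003, 909 and 845 CPM against 1427, 1516, 1527 and 1074 CPM. Antibody replicate 1 was above IgG replicate 4, so the groups overlapped, and the change was -0.45 ± 0.15 (adjusted p = 0.0276). Its adjusted p ran from 0.0531 to 0.0899 on leaving out antibody replicate 2, 3 or 4 or IgG replicate 1, 2 or 3, so the call depended on each of them. Sox4, a developmental transcription factor, held 119, 85.1, 91.7 and 60.8 CPM against 187, 232, 174 and 240.4 CPM (-1.23 ± 0.18). Vcam1 (-0.59 ± 0.08), an adhesion molecule of failed-repair tubules, and Cd44 (-0.78 ± 0.10), a hyaluronan receptor, were lower as well. Itgb8, an integrin subunit, moved against the list: it held 245, 256, 225 and 303 CPM against 121, 139.7, 147 and 149.5 CPM (0.88 ± 0.10, adjusted p = 8.66e-05).

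Cell division genes were lower with the antibody at day 14. All 24 mitosis genes tested, of 25 in the list, were called lower (median -0.97), and all 24 kept the call on leaving out any single library. Mki67, the proliferation marker Ki-67, stood at 38.9, 26.1, 27.1 and 27.5 CPM with the antibody and 66.5, 51.9, 59.7 and 55.2 CPM with IgG. The highest antibody library, replicate 1, was below the lowest IgG library (log2 change -0.96 ± 0.13, edgeR adjusted p = 1.70e-04). Birc5, survivin of the chromosomal passenger complex, held 7.12, 5.61, 4.71 and 4.44 CPM against 15.8, 12.2, 13.1 and 10.6 CPM (-1.24 ± 0.16). Cenpf, of the kinetochore, and Kif23, a kinesin of cytokinesis, changed by -0.99 ± 0.14 and -0.91 ± 0.10. With an offset for transcript length Cenpf was no longer called (-0.46, edgeR adjusted p = 0.104). The summed level of the list was 228, 164, 161 and 166 CPM with the antibody and 411, 300.3, 364 and 322 CPM with IgG, and antibody replicate 1 stood above the other antibody libraries. Of 25 DNA replication genes, 18 were lower and 1 higher (median -0.52, and -0.60 to -0.34 on leaving out single libraries). Rrm2, which makes deoxynucleotides, held 18.1, 12.1, 9.64 and 12.5 CPM against 37.8, 23.5, 30.7 and 24.3 CPM (-1.15 ± 0.20), and Uhrf1, which carries DNA methylation through replication, changed by -1.01 ± 0.16. Among 16 tested regulators of the cell cycle, 11 were lower, with Ccnd2, cyclin D2 (-1.06 ± 0.14), and the repressors E2f7 (-1.03 ± 0.16) and E2f8 (-1.40 ± 0.21), and 1 was higher, Rb1 (0.35 ± 0.07), the brake on entry into S phase. Cdkn1a, the p53-induced inhibitor p21, held 21.99, 16.6, 20.4 and 17.2 CPM against 30.3, 26.1, 25.9 and 22.7 CPM and fell (-0.46 ± 0.11, adjusted p = 0.00473). Of 20 p53 target genes, 7 were lower and 2 higher (11 and 2 with upper-quartile scaling), with Phlda3 (-1.19 ± 0.17) among the falls and Sesn2 (0.81 ± 0.13) and Ccng1 (0.53 ± 0.11) as the rises.

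Promoters of mitosis genes are shown because the members moved together. The windows are the 250 bases before the gene's start, 5′ to 3′ on the gene's strand, from RefSeq's table for the mouse build GRCm38.p6, in which 20 of the 25 members matched by symbol. Capitals mark CCAAT boxes, searched as CCAAT and on the other strand as ATTGG. Mki67 lies at chr7:135716380-135716629 (minus strand) with 3 matches, and Kif23 at chr9:61946800-61947049 (minus strand) with 1.
Mki67: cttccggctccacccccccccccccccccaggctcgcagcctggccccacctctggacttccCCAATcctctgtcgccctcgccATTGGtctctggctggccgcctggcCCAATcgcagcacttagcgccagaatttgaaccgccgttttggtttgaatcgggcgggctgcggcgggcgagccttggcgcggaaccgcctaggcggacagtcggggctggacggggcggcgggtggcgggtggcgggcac
Kif23: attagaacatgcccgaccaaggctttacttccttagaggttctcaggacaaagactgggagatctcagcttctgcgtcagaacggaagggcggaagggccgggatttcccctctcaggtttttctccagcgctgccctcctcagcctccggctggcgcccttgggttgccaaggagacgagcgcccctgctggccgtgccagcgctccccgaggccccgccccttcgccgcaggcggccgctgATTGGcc
A CCAAT box was present in 17 of the 20 member windows (85%) and in 34.5% of the 27025 promoter windows of the table. The letters TTTGAA or TTCAAA, of the cell cycle homology region, were in 6 of the 20 and in 16.3% of all windows. The 3 members without a CCAAT box were also called lower. A match of letters is a description of the window, and binding was not measured.

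Interferon-stimulated genes were lower with the antibody. Of 21 members, 19 were lower and none was higher, with a median of -1.13, and the count was 19 on leaving out any single library. Ifih1, a sensor of double-stranded RNA, was among those that did not pass. Rsad2, viperin, an antiviral enzyme, stood at 22.1, 16.2, 19.3 and 14.1 CPM with the antibody and 36.2, 40.7, 39.8 and 29.7 CPM with IgG (log2 change -1.03 ± 0.14, edgeR adjusted p = 1.89e-04). Usp18, which removes ISG15 from proteins and dampens the interferon receptor, held 2.77, 2.16, 2.58 and 1.78 CPM against 5.22, 4.96, 5.79 and 4.43 CPM (-1.13 ± 0.16). Zbp1, a nucleic acid sensor, held 2.96, 2.53, 2.63 and 1.83 CPM against 4.94, 7.24, 5.54 and 5.42 CPM (-1.22 ± 0.17). Stat2, a subunit of the factor that interferon activates, held 23.97, 20.5, 22.9 and 17.6 CPM against 33.6, 35.1, 33.5 and 35.2 CPM (-0.69 ± 0.09). None of these 4 genes had overlapping groups. Isg15, named after its values were seen, changed by -1.19 ± 0.21. Its promoter and those of Rsad2 and Stat2 are shown with the interferon-stimulated response element in capitals, searched as GAAA repeated after a gap of any 2 bases, and on the other strand as TTTC repeated in the same way, in the same 250-base windows. Rsad2 lies at chr12:26456453-26456702 (minus strand), Stat2 at chr10:128270248-128270497 (plus strand) and Isg15 at chr4:156200819-156201068 (minus strand). The 3 matches of Isg15 overlap.
Rsad2: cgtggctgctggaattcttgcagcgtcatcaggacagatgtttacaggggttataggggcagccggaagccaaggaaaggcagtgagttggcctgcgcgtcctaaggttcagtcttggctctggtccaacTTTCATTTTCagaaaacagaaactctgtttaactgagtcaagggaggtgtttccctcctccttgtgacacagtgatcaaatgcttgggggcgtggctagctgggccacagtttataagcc
Stat2: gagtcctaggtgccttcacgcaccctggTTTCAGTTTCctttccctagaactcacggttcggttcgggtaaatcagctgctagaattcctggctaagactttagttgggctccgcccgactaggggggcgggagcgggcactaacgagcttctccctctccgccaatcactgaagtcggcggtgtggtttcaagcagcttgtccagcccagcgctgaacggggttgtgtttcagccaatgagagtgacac
Isg15: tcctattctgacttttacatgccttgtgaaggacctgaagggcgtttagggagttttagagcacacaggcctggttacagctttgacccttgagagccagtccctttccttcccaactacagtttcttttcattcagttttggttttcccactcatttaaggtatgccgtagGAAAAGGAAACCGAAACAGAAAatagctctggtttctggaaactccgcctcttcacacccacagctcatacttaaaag
The element was present in 8 of the 15 members with a window and in 3.04% of the 27025 windows. All 8 members with it and 6 of the 7 without it were called lower. Of 10 tested genes of the cGAS-STING pathway, which senses cytosolic DNA through the messenger that ENPP1 degrades, 5 were lower and 2 higher. Cgas, the sensor that makes the messenger, held 2.99, 1.299, 2.74 and 2.17 CPM against 6.53, 6.16, 5.504 and 5.498 CPM (log2 change -1.36 ± 0.22, edgeR adjusted p = 4.40e-04). Ifi204, a DNA-binding sensor (-1.56 ± 0.16), and Ikbke, a kinase of the pathway (-0.85 ± 0.14), fell, and the rises were of the transporters Slc19a1 (0.73 ± 0.08) and Lrrc8a (0.26 ± 0.06), linked to the passage of cyclic dinucleotides into cells. With upper-quartile scaling 8 were lower and 1 higher, and Lrrc8a did not pass (adjusted p = 0.149, edgeR). Tmem173, which encodes STING itself and was named after its values were seen, held 11.2, 10.7, 12.7 and 8.47 CPM against 14.9, 19.2, 16.1 and 16.1 CPM (-0.62 ± 0.12, adjusted p = 0.0016).

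Macrophage genes were lower with the antibody. Of 20 macrophage genes, 18 were lower and none was higher (median -1.29), and Cd163 and Ly6c2 did not pass. C1qb, a subunit of complement C1q, stood at 24.7, 16.8, 22.3 and 15.8 CPM with the antibody and 56.8, 75.9, 46.5 and 37.1 CPM with IgG (log2 change -1.44 ± 0.21, edgeR adjusted p = 2.89e-04). Adgre1, the F4/80 antigen, held 7.02, 4.27, 6.73 and 4.83 CPM against 11.8, 21.9, 11.3 and 11.8 CPM (-1.32 ± 0.24). IgG replicate 2 was the highest library for both genes, and the groups did not overlap. Mrc1 (-1.36 ± 0.20), the mannose receptor, Spi1 (-1.13 ± 0.15), the myeloid transcription factor PU.1, and Cd68 (-0.89 ± 0.14), a lysosomal glycoprotein, fell too. The macrophage genes summed to 306, 239, 302 and 209 CPM with the antibody and 600.5, 908, 508 and 467 CPM with IgG. The inflammatory list of cytokine and NF-kB genes had 13 of 20 tested members lower and none higher (median -0.53). Nfkbia, the feedback inhibitor of NF-kB, held 84.8, 66.4, 73.8 and 59.5 CPM against 133, 133, 120.1 and 124 CPM (-0.84 ± 0.10), and Il1b, interleukin 1 beta, 2.57, 2.11, 1.97 and 1.45 CPM against 3.596, 6.42, 4.205 and 5.33 CPM (-1.27 ± 0.22). Cxcl1, a neutrophil chemokine, held 149.6, 141, 126 and 77.3 CPM against 109, 115, 138 and 179.7 CPM. The groups overlapped, with antibody replicate 4 lowest and IgG replicate 4 highest, and the change was -0.13 ± 0.20 (95% interval -0.58 to 0.32, adjusted p = 0.604). Of 7 tested neutrophil genes 4 were lower, among them Csf3r (-1.52 ± 0.18) and Cxcr2 (-0.89 ± 0.14). Of 15 lymphocyte genes 3 were lower, a smaller share than the 28% of all tested genes, with 10 lower under upper-quartile scaling and 5 without antibody replicate 1. Jchain (-1.65 ± 0.23) and Ighm (-1.16 ± 0.24), of antibody-secreting cells, led them.

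Matrix genes were lower by a similar measure. Of 28 extracellular matrix and myofibroblast genes, 25 were lower and none was higher (median -1.15), and Acta2, Ccn1 and Ccn2 did not pass. Col1a1, a chain of fibrillar collagen I, stood at 30.1, 17.5, 23.9 and 15.6 CPM with the antibody and 66.8, 98.3, 59.01 and 54.9 CPM with IgG (log2 change -1.68 ± 0.23, edgeR adjusted p = 1.80e-04). Col3a1, of collagen III, held 70.5, 47.9, 63.8 and 43.3 CPM against 149, 217, 158 and 118 CPM (-1.51 ± 0.19). Fn1, fibronectin, held 29.3, 22.3, 27.7 and 19.9 CPM against 49.2, 83.6, 54.9 and 56.6 CPM (-1.30 ± 0.17). Timp1 and Timp2, inhibitors of matrix proteases, changed by -1.47 ± 0.17 and -1.28 ± 0.16. The groups did not overlap for any of these 5 genes, and IgG replicate 2 was the highest library for each. IgG replicate 2 also had the highest macrophage and matrix sums. Without it, 17 of 20 macrophage genes (median -1.01) and 24 of 28 matrix genes (median -0.84) were called lower. Of 16 endothelial genes 4 were lower (8 with upper-quartile scaling), a share no larger than the 28% of all tested genes, among them Pecam1 (-0.60 ± 0.07) and Vwf (-1.07 ± 0.27). Of 15 podocyte and glomerulus genes, 5 were higher and 4 lower (3 and 6 with upper-quartile scaling), near the shares of all tested genes. Col4a3, of the glomerular basement membrane, rose (0.65 ± 0.13), and Plce1 (-0.98 ± 0.17) and Synpo (-0.50 ± 0.09), of the podocyte cytoskeleton and its signalling, fell.

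Of 18 tested ectonucleotidase and adenosine genes around the target enzyme, 7 were higher and 3 lower, where 27.2% and 28% of all tested genes were. The rises included 5 other ENPP genes. Enpp2, autotaxin, which makes lysophosphatidic acid, held 356, 470.5, 399 and 545 CPM against 144, 121, 165 and 141 CPM (log2 change 1.63 ± 0.14, edgeR adjusted p = 4.35e-05). Enpp3, which shares the domain structure of Enpp1, held 66.2, 74.8, 68.3 and 79.3 CPM against 36.1, 40.9, 44.3 and 40.6 CPM (0.83 ± 0.08, adjusted p = 5.14e-05), and Enpp5 changed by 0.90 ± 0.09. Adk, adenosine kinase, held 109.7, 146, 133 and 154 CPM against 68.5, 51.2, 66.1 and 51.4 CPM (1.19 ± 0.13). The falls were of Adora1, Entpd2 and Ada, but Entpd2 and Ada lost the call on leaving out most single libraries, and the lower count then ran from 1 to 3. The adenosine receptor Adora1 held 6.37, 4.55, 5.51 and 3.72 CPM against 9.01, 9.997, 10.3 and 10.5 CPM and fell (-0.98 ± 0.15). Among 20 purine genes, 8 were higher and 3 lower (7 and 7 with upper-quartile scaling, 8 and 1 without IgG replicate 2). Paics (0.60 ± 0.09), Adsl (0.70 ± 0.09), Prps1 (0.53 ± 0.07) and Prps2 (0.68 ± 0.10), of purine synthesis, rose. Aprt, which salvages adenine itself, held 33.6, 30.1, 32.4 and 26.1 CPM against 38.3, 39.8, 36.4 and 34.3 CPM (-0.28 ± 0.08, adjusted p = 0.0154, and 0.0609 without IgG replicate 2). Uox, urate oxidase, stood at 0.618, 0.394, 0.352 and 0.672 CPM against 1.01, 2.23, 1.61 and 1.32 CPM (-1.6 ± 0.31). Of 18 pyrimidine genes, 11 were higher and 2 lower. Besides Dpys, the next enzymes of the breakdown chain rose, with Dpyd (1.10 ± 0.10) before it and Upb1 (1.51 ± 0.18) after it.

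Phosphate transport and mineralisation genes did not stand out as a list. Of 18 tested members, 6 were higher and 5 lower, shares near the 27.2% and 28% of all tested genes, so the values below are those of single genes. Slc34a1, the main sodium phosphate cotransporter of the proximal tubule, held 988, 1173, 1026 and 1393 CPM against 418, 266, 413 and 358 CPM (log2 change 1.65 ± 0.16, edgeR adjusted p = 4.97e-05). Slc34a3, its relative, changed by 2.14 ± 0.27. Kl, which encodes klotho, the co-receptor of FGF23, held 237, 296, 252 and 361 CPM against 109, 78.7, 124 and 92.3 CPM (1.5 ± 0.16), and Casr, the calcium-sensing receptor, 10.5, 15.2, 13.3 and 13.4 CPM against 6.12, 5.402, 5.58 and 5.25 CPM (1.23 ± 0.12). The falls were of Spp1 (above), Mgp, matrix Gla protein, an inhibitor of calcification (-1.23 ± 0.21), Bmp2 (-1.29 ± 0.24) and Runx2 (-0.81 ± 0.18), which promote bone formation, and Cyp27b1 (-0.62 ± 0.18), which activates vitamin D.

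Stress, growth factor and hormone lists gave smaller counts, and those of the immediate early and growth factor lists were near the shares of all tested genes. Of 14 tested unfolded protein and ATF4 genes, 8 were higher and 1 lower: Hspa5, the chaperone BiP, held 498, 576, 611 and 480.0 CPM against 318, 341, 324 and 348 CPM (log2 change 0.70 ± 0.09), and Phgdh, of serine synthesis, fell (-0.61 ± 0.13). With an offset for transcript length the change of Phgdh was -0.01 (edgeR adjusted p = 0.957). Of 17 cholesterol and fatty acid synthesis genes 9 were higher and none lower, with Cyp51 (1.31 ± 0.18) and Acly (1.08 ± 0.09). Of 8 tested renin-angiotensin genes 7 were higher and none lower, with Ace (1.07 ± 0.09) and Enpep (1.13 ± 0.09), peptidases of the brush border. Of 16 immediate early and heat shock genes, 5 were lower, with Klf4 (-1.28 ± 0.19), and 3 higher, with Dnajb1 (0.47 ± 0.11). Of 15 clock genes 7 were higher and 2 lower, with Hlf (1.44 ± 0.15) and Tef (0.95 ± 0.11) among the rises. In the growth factor list, 3 of 17 tested were higher and 6 lower. Wnt4, a signal of tubule development and of activated fibroblasts, held 10.1, 6.84, 7.596 and 6.85 CPM against 22.7, 24.7, 21.1 and 23.6 CPM (-1.55 ± 0.12, edgeR adjusted p = 4.35e-05), Igf1 fell (-0.93 ± 0.14), and Vegfa (0.62 ± 0.09), Bmp7 (0.70 ± 0.11) and Egfr (0.43 ± 0.08) rose.

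Markers of other tissues that could be carried along with the kidney were examined. Adrenal markers summed to 1.32 to 2.34 CPM with the antibody and 1.62 to 1.91 with IgG, with 2 of 8 tested. Skeletal muscle markers did not exceed 1.51 CPM in any library. Adipose markers reached 27.7 CPM and urothelial markers 105 CPM at most, both in IgG libraries. Nearly all of the urothelial sum was Krt20, at 85.4, 72.9, 68.5 and 69.0 CPM with the antibody and 103, 94.1, 97.4 and 92.8 CPM with IgG. Upk1b, Upk2, Upk3a, Upk3b and Krt5 of the same list were below the filter on low counts, so this sum is no measure of carried-along urothelium. Liver markers summed to 385 to 478 CPM with the antibody and 155 to 307 with IgG, and 5 of 6 tested were higher (3 with upper-quartile scaling, and 3 without antibody replicate 2 or 3 or IgG replicate 2). The liver sum was above the macrophage sum of every antibody library, 209 to 306 CPM. Of the liver sum, Fgb alone held 152, 164, 202 and 143 CPM with the antibody and 116, 53.3, 87.0 and 44.0 CPM with IgG. Alb, albumin, held 6.72, 8.77, 8.299 and 11.8 CPM against 3.72, 0.842, 2.36 and 0.706 CPM (log2 change 2.23 ± 0.43, edgeR adjusted p = 0.00145), and Ttr, transthyretin, 73.6, 139.6, 93.4 and 129.6 CPM against 43.3, 25.5, 38.6 and 30.3 CPM (1.66 ± 0.21). Globin genes summed to 36.9 to 55.6 and 24.9 to 48.8 CPM (exact permutation p = 0.314). The part of these tissues in the results was not tested.

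The antibody effect was set beside the effect of the labelled knockout in the other adenine experiment, which has its own controls. Libraries labelled ENPP1 knockout (n = 6) did not have less Enpp1 RNA than wild type (log2 change 0.05 ± 0.26), so this reference rests on its labels. The 4 Y-linked genes looked at summed to 201 to 313 CPM in the 8 antibody and IgG libraries and to 8.92 to 19.96 CPM in the 16 libraries of the knockout experiment. Sex by these genes, experiment and treatment therefore cannot be told apart in this comparison. Of 17119 genes tested in a fit of the 20 adenine libraries, the antibody effect was above the knockout effect for 3697 (21.6%) and below it for 2788 (16.3%), which is 37.9% in either direction. The knockout effect in the same fit called 23.6% of genes higher and 19% lower. Proximal tubule genes were higher in both, 25 of 25 each, with medians of 1.68 for the antibody and 1.35 for the knockout, and the antibody effect was the larger for 10 of them. For Lrp2 the knockout effect was 0.84 ± 0.17 and the difference 1.41 ± 0.27 (edgeR adjusted p = 4.26e-04); for Hpd the knockout effect was 4.79 ± 0.39 and the difference -0.77 ± 0.65 (adjusted p = 0.376). The antibody effect was below the knockout effect for 22 of 28 matrix, 16 of 20 macrophage, 16 of 21 interferon and 21 of 24 mitosis genes. It was below the knockout effect for 4 of 20 injured tubule and 6 of 25 DNA replication genes. For Col1a1 the knockout effect was 0.15 ± 0.15 and the difference -1.76 ± 0.24 (adjusted p = 2.11e-05). For C1qb they were 0.01 ± 0.13 and -1.37 ± 0.21 (adjusted p = 6.26e-05), for Rsad2 0.42 ± 0.11 and -1.38 ± 0.16 (adjusted p = 5.86e-06), and for Mki67 -0.19 ± 0.09 and -0.69 ± 0.14 (adjusted p = 7.64e-04). The cytokine and NF-kB list had 13 of 20 members lower with the antibody and 15 of 20 with the knockout, with 4 members each way past the test of the difference.

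**Figure D5:**
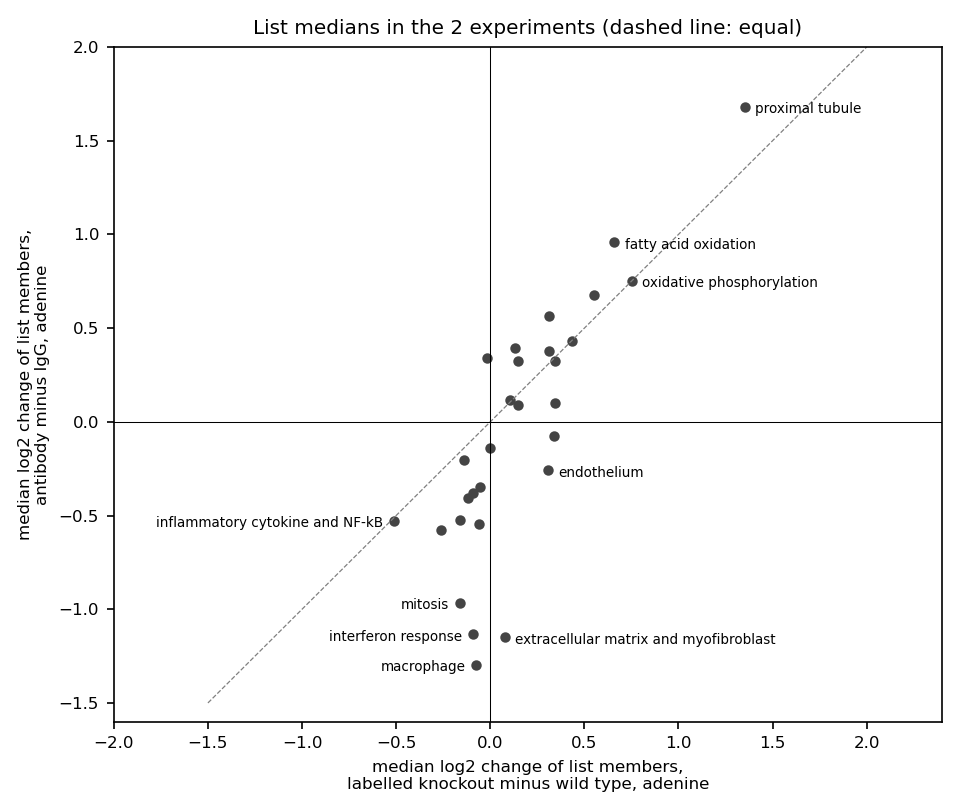
Median log2 change of the tested members of 29 gene lists, antibody minus IgG (vertical axis) against labelled knockout minus wild type on adenine (horizontal axis). Proximal tubule genes lie near the line of equal change, while the macrophage, matrix, interferon and mitosis lists lie between -0.16 and 0.08 in the knockout experiment and between -0.97 and -1.29 in the antibody experiment.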

How the data were processed

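RNA of whole kidney was sequenced. Per the submitters' processing notes, Salmon, FastQC, DESeq and DESeq2 were used with the build GRCm39, with no versions given. Per the file headers, each library's deposited table holds one row per transcript with its length, effective length, TPM and the estimated count of reads that Salmon assigned to it, which need not be whole. How replicates were prepared, and whether reads were trimmed or deduplicated, is not stated in the labels.

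The estimated counts were summed per gene and rounded. Transcripts were joined to genes by identifier with the GENCODE M21 annotation of GRCm38. It is an older build than the authors' and is used only for names. Of 116755 transcripts 115685 matched (99.1%), and the other 1070 were not used. Salmon can move reads between near-identical copies, so values of multicopy genes are uncertain, and overlapping genes are uncertain too, since the strand setting is not stated. The authors' TPM values were used only for the Enpp1 transcripts.

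The 4 antibody and 4 IgG libraries alone were fitted with edgeR 4.0.16 (R 4.3.3): low-count filter by filterByExpr, TMM scaling, quasi-likelihood test, Benjamini-Hochberg adjustment, threshold 0.05. The antibody effect was compared with that of the labelled knockout in 1 fit of the 20 adenine libraries, as a difference of differences. Lists are described by counts and medians, with no test of a list. Library values were compared by a two-sided exact permutation test. The edgeR step was tested on simulated data in which far fewer genes were changed than were called here. That setting does not test the scaling. Alternatives covered scaling, filter, tool (DESeq2 1.42.0, limma 3.58.1), length offset, mitochondrial genes, replicate block and each library left out. The libraries held 43886517 to 50566596 assigned reads each. Read floors cover counting error only. No 2 libraries of a group were alike within counting noise.

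Genes were named by rule: Enpp1, the 12 largest changes each way among protein-coding genes that passed the test with a mean of at least 5 CPM and no overlap of the groups, and up to 4 members of each list with the smallest p, plus members that moved against their list. A set of reporter genes was named whatever its result: Havcr1, Lcn2, Lrp2, Umod, Aqp2, Mki67, Cdkn1a, Col1a1, Adgre1, Ass1, Dpys and Cxcl1. The comparison, its gene lists and rules were chosen with earlier results of these data known. Members that did not pass are named where they were few, after their values were seen. A few named genes are not reported here.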

Additional observations from a re-analysis of the deposited data

Results flagged for a closer look

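For each gene named in the text and each library value, the highest or lowest of the 4 libraries of a group was set against the other 3 by Dixon's gap criterion at the 95% level. Of 374 groups looked at, 19 had a library apart from its group, where chance gives about 1 in 20, or 18.7 of them, so the number is about that of chance.

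Antibody replicate 1 stood apart most often. Its mitosis genes summed to 228 CPM, against 161 to 166 CPM in the other antibody libraries, with Mki67 at 38.9 CPM, Cenpf at 12.4 CPM and Uhrf1 at 18.04 CPM, each above its group. In the same library the fatty acid oxidation genes summed to 3892 CPM, against 5325 to 5347 CPM, Hadha held 156 CPM and Slc19a1 held 37.5 CPM, each below its group. Mki67 and Cenpf are members of the mitosis list and Hadha of the fatty acid oxidation list, so these entries are not independent. Antibody replicate 4 had 19976 genes with a read, the fewest of its group, and high Col4a3 (229 CPM) and Slc7a13 (294.7 CPM). Antibody replicate 3 was high for Ada (1.31 CPM against 0.835 to 0.904 CPM).

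IgG replicate 2 had the highest matrix sum of its group (1657 CPM against 1173 to 1245 CPM), and high Adgre1 (21.9 CPM) and Bmp2 (2.44 CPM), with low Col4a3 (94.8 CPM). IgG replicate 1 was high for Spc24 (104 CPM against 43.7 to 52.2 CPM) and Rb1 (47.2 CPM). IgG replicate 3 was high for Apom (5.27 CPM against 2.09 to 2.25 CPM), and IgG replicate 4 was low for Ccng1 (132 CPM). Each of the genes named here kept its direction and its call when the library that stood apart was left out.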

How the results depend on the processing

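The counts of 4469 higher and 4603 lower genes stayed within 1.5 times under each alternative, but the genes called differed. The share of these calls kept in the same direction ran from 83.7% (upper-quartile scaling) to 99.1% (mitochondrial genes left out). It was 84.7% with the transcript-length offset and 85.5% without antibody replicate 2. Higher calls ran from 2988 (upper-quartile scaling) to 4696 (DESeq2) and lower calls from 3745 (without IgG replicate 2) to 6621 (upper-quartile scaling). With the replicate number as a block there were 4149 and 4129. The block also gave 3312 genes above and 2386 below the knockout effect. Across the groups, same-numbered libraries had deviation correlations of -0.08, -0.03, -0.01 and -0.06, and the other pairs ran from -0.20 to 0.18. The labels state no pairing, and these values cannot decide whether equal numbers share a cage or day. Removing a trend on transcript length, chosen after seeing the data, gave 4275 and 5031. The difference from the knockout effect ran from 3169 to 4137 genes upward and from 2386 to 2942 downward.

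Of 193 named genes that were called, 171 were called under each alternative. Enpp1 and Cxcl1 changed sign without being called: the main Enpp1 change of -0.00 was 0.015 with RLE scaling, 0.021 with DESeq2 and 0.22 with a transcript-length offset, and ran from -0.67 to 0.30 on leaving out single libraries, where Cxcl1 ran from -0.23 to 0.041. The cause was not tested. Low-count genes and pseudogenes are limited by depth and by shared sequence.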

Other observations

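The antibody libraries had an order that several lists shared. Replicate 4 had the highest proximal tubule sum of the antibody group and its lowest macrophage (209 CPM), matrix (538 CPM) and interferon (241 CPM) sums. Replicate 1 had the lowest proximal tubule sum and the highest macrophage (306 CPM), matrix (807 CPM) and interferon (335 CPM) sums. All of these sums stayed outside the range of the IgG libraries.

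A few genes had reads in every library of 1 group and none in the other. Processed pseudogenes Gm14117, Sms-ps and Gm8203 had 465, 504 and 1037 reads over the antibody libraries and 0 over the IgG libraries, which is at least 199-fold, 215-fold and 443-fold higher with a floor of 3 reads over the group. In the 16 libraries of the knockout experiment their highest levels were 0, 1.598 and 3.97 CPM. Rpl9-ps6 had 6464 reads over the IgG libraries and 0 over the antibody libraries. Strain and genotype of these mice are not stated. A difference of that kind between the groups was not tested and cannot be told apart from the injection.

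Changes of all genes in the antibody and knockout experiments, which share no libraries, had a Pearson correlation of 0.49 and a Spearman correlation of 0.55 over 16249 genes. These are correlations across genes, which are not independent replicates. Of the 16249 genes, 9025 were called with the antibody and 7151 for the labelled knockout. Called in both were 4696, which is 52.0% of the antibody calls and 65.7% of the knockout calls. Of those 4696 genes, 4214 had the same direction. Shares this large overlap in part by chance, as 55.3% of all genes tested for the antibody were called. For the labelled knockout, 23.6% of tested genes were called higher and 19% lower. The excess over chance was not tested.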
